A study of Mus musculus with 16 samples.

Results

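Imprinted genes are expressed mainly from the allele inherited from 1 parent, and 10 of them are described here in mouse skin and in skin carcinomas: Meg3, Sgce, Peg10, Peg3, H19, Igf2, Dlk1, Grb10, Mest and Plagl1. A member was read where the annotation of the Affymetrix MOE430 2.0 array gives a probeset its symbol and no other. By that rule 9 of the 10 genes were measured, by 30 of 45037 probesets, or 9 of 18193 genes with a probeset of their own. H19 was not read, because its probeset also carries the symbol of the microRNA Mir675. The RNA came from 4 control skin samples, 7 p53 tumors and 5 pRbp53 tumors, 1 array each, all on the FVB background. Control skin was normal and wild type. The p53 tumors arose in k14Cre;p53loxP/loxP mice and the pRbp53 tumors in k14Cre;p53loxP/loxP;pRbloxP/loxP mice. The keratin K14 promoter drives Cre in stratified epithelia, so that stromal, muscle, fat and immune cells of a tumor keep these genes, and no control carried the floxed alleles or Cre. Ages and treatments are not given in the sources used here. By histology, 3 p53 tumors were poorly differentiated (2, 4 and 5), 1 was undifferentiated (3), 1 was spindle (6) and 2 were mixed (1 and 7), while 4 pRbp53 tumors were spindle (1, 2, 3 and 5) and 1 was mixed (4).

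Imprinted genes lie in clusters in which a stretch of DNA, methylated on 1 parental copy, sets which neighbours are read from the maternal and which from the paternal chromosome. Many act on growth: Igf2 is a paternally expressed growth factor and Grb10 an adaptor that dampens signalling from the insulin and IGF receptors. Several are high in the embryo and placenta and lower in most adult tissues. Meg3, Rian and Mirg are maternally expressed noncoding RNAs of the cluster that also holds the paternally expressed Dlk1, whereas Sgce and Peg10 are adjacent, paternally expressed genes.

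Coordinates and sequences are those of RefSeq on GRCm38.p6. Meg3 spans chr12:109540996-109571729 and Dlk1 chr12:109452485-109463336. Sgce spans chr6:4674350-4747204, next to Peg10 at chr6:4747306-4760517, and Mest lies on the same chromosome at chr6:30733506-30748466. Peg3 spans chr7:6703892-6730462 and Igf2 chr7:142650768-142666816. Plagl1 spans chr10:13090832-13131694 and Grb10 chr11:11930499-12037428. The sequence table held 14 promoters of 7 members, each 250 bases before to 50 bases after a start site, and they were searched on both strands for the cAMP response element palindrome TGACGTCA, for TATAAA and for the E2F sites TTTCCCGC, TTTCGCGC, TTTGCCGC and TTTGGCGC, since pRb binds E2F factors. The palindrome was in 2 of the 14 promoters, 1 of Meg3 and that of Peg3, and both are shown here with it in capitals. It occurred in 1.79% of 32851 mouse promoters of this length. In the Meg3 promoter it began 57 bases before the start site and was followed by TATAAA on both strands, also in capitals, a motif in 13.6% of promoters. In the Peg3 promoter it began 178 bases before the start. An E2F site was found in 1 of the 14, a Plagl1 promoter, against 2.26% of all promoters. Promoters of Sgce, Peg10 and H19 were not available and were not searched. These matches are a description of the letters in the windows.
Meg3 promoter, chr12:109540746-109541045, plus strand: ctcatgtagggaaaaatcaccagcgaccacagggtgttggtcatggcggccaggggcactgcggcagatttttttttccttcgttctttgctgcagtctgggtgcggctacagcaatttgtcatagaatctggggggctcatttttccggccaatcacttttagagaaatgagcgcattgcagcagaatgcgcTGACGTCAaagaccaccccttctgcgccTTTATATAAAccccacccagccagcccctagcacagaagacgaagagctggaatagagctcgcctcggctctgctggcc
Peg3 promoter, chr7:6730370-6730669, minus strand: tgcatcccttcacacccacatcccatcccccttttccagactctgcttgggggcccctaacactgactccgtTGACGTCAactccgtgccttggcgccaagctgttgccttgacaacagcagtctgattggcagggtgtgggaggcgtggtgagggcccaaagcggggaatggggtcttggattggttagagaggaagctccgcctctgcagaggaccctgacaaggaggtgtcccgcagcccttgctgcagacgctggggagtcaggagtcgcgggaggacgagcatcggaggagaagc

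Levels are RMA log2 signals, so that a difference of 1 is a doubling of signal, and they are compared between arrays and never between genes. Array medians ran from 5.63 to 5.76. As a sign of RNA breakdown, the actin signal at the 3' end exceeded that at the 5' end by 1.67 in p53 tumor 7 and by 1.33 in control skin 3, and by 0.21 to 0.68 elsewhere. Control skin 2 and 4 correlated at 0.996 over all probesets and the other control pairs at 0.970 to 0.984. Since no label ties the samples to separate animals, p-values measure the spread between samples only. In these bulk samples, fewer cells of a type and less RNA per cell cannot be told apart. Keratinocyte markers, 10 of 10 measured, had a mean log2 signal of 12.12 to 12.41 in control skin, 4.97 to 11.91 in the p53 tumors and 4.84 to 7.31 in the pRbp53 tumors, so that the epithelial markers of the labelled tissue were low in many tumors.

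Meg3 and Sgce were chosen by their measured values, because they were higher in pRbp53 than in p53 tumors, and their values are given as a description with no test in any comparison. The other 7 measured members were tested with limma, with p-values adjusted over all probesets. The comparisons set all tumors against control skin, the pRbp53 against the p53 genotype, and, as grade, undifferentiated or spindle histology against poor differentiation. Mest had a higher mean in the pooled tumors than in control skin, although the groups overlapped. No other tested member passed in these 3 comparisons. That is 1 of 7 higher and 0 of 7 lower in tumors, where 16.7% of all genes passed an adjusted p of 0.05, 7.57% higher and 9.17% lower. By genotype 0 of 7 passed an adjusted p of 0.1, where 0.159% of all genes did, with 1 at an unadjusted p under 0.05 by limma and 0 by the methods' t-test after adjustment. Between undifferentiated or spindle and poorly differentiated tumors 0 of 7 passed, where 9.12% of all genes did, with 2 at an unadjusted p under 0.05 and 0 by the methods' t-test after adjustment. The median difference of the 7 was 0.11 for tumors against control skin, 1.45 for genotype and 0.12 for grade, and that of all genes was 0.06, -0.01 and 0.02.

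**Figure D1:**
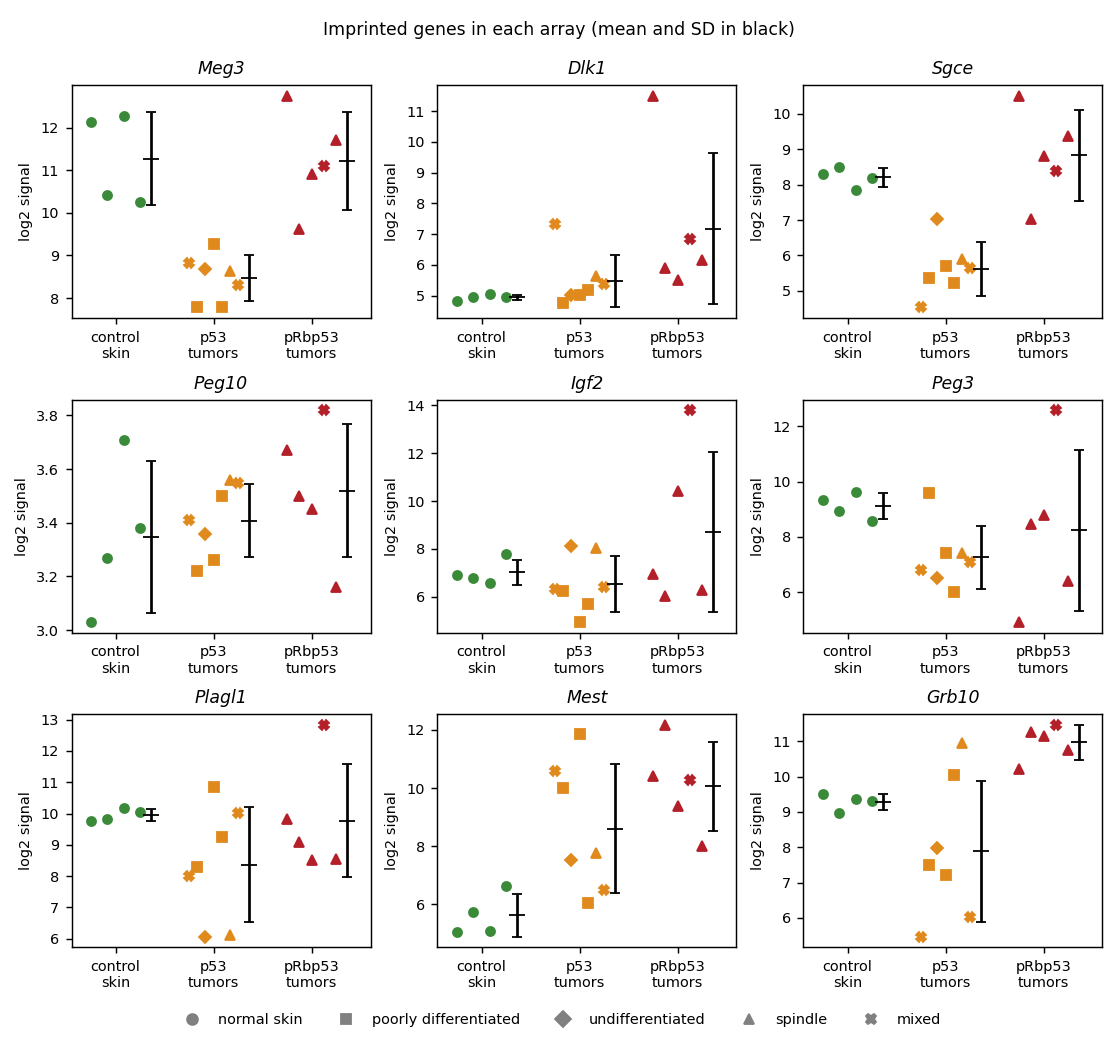
RMA log2 signal (vertical axes, a scale of its own for each gene) of the 9 measured members in control skin (4 arrays), p53 tumors (7) and pRbp53 tumors (5), with 1 point per array shaped by histology and the mean and SD of each group in black. Meg3 and Sgce are lower in every p53 tumor than in every pRbp53 tumor, Mest is low in control skin, and single tumors stand far above the rest for Dlk1, Igf2, Peg3 and Plagl1.

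Meg3, a maternally expressed noncoding RNA, had among its 11 probesets 1 that was brightest and is read here. In control skin 1 to 4 its log2 signal was 12.14, 10.41, 12.27 and 10.25. In the 7 p53 tumors the lowest level was 7.78, the median 8.63 and the highest 9.26. In pRbp53 tumors 1 to 5 the level was 12.75, 9.61, 10.91, 11.10 and 11.71. Every p53 tumor lay below every control and every pRbp53 tumor, while pRbp53 tumors and control skin overlapped. Control skin averaged 11.27 ± 1.08 (SD, n = 4), the p53 tumors 8.46 ± 0.55 (SD, n = 7) and the pRbp53 tumors 11.21 ± 1.15 (SD, n = 5). The pRbp53 tumors were 2.75 ± 0.46 (SE) above the p53 tumors, a 6.72-fold difference in signal, and the p53 tumors 2.80 ± 0.44 (SE) below control skin. The pRbp53 tumors differed from control skin by -0.05 ± 0.66 (SE), and all tumors by -1.66 ± 0.83 (SE). All 11 Meg3 probesets were higher in pRbp53 than in p53 tumors, by 0.34 to 3.24.

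Genotype and histology overlapped in these tumors, since no pRbp53 tumor was poorly differentiated. Among the 6 undifferentiated or spindle tumors alone, Meg3 was 8.68 and 8.63 in the p53 tumors 3 and 6 and 9.61 to 12.75 in the 4 pRbp53 tumors, and the groups did not overlap (2.59 ± 0.83, SE). In the mixed tumors Meg3 was 8.82 and 8.31 in p53 tumors 1 and 7 and 11.10 in pRbp53 tumor 4. Every p53 tumor lay below every pRbp53 tumor, so the order within each of these subsets was fixed beforehand. With histology as a covariate the genotype difference was 2.57 ± 0.60 (SE). Meg3 was chosen for that difference, so the subsets and this fit are a description and no separate support for it. By grade, Meg3 was 10.38 ± 1.69 (SD, n = 6) in undifferentiated or spindle tumors and 8.27 ± 0.86 (SD, n = 3) in poorly differentiated ones, a difference of 2.10 ± 0.95 (SE). Within the p53 tumors the grade difference was 0.38 ± 0.52 (SE).

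Rian and Mirg, noncoding RNAs that lie beyond Meg3 in the same cluster, were the 2 measured of 5 listed neighbours of the Dlk1-Meg3 locus. Rian had a log2 signal of 7.19, 6.27, 6.42 and 6.10 in control skin 1 to 4. In the p53 tumors it ran from 4.77 through a median of 5.30 to 5.91. In pRbp53 tumors 1 to 5 it was 9.95, 6.04, 6.89, 6.79 and 8.08. The tumor genotypes did not overlap for Rian or for Mirg, and pRbp53 tumor 1 was highest for both. The share of all genes whose tumor genotypes do not overlap was not counted. The genotype differences, 2.21 ± 0.57 (SE, limma adjusted p = 0.235) for Rian and 1.57 ± 0.45 (SE, limma adjusted p = 0.288) for Mirg, did not pass. That of Rian passed in 1 of the alternatives, with control skin added to the fit as a group of its own (limma adjusted p = 0.0825). Rian varied with Meg3 over the same tumors (r of 0.954). Since Meg3 was chosen for its genotype difference, the p-values of these neighbours are no separate support for it. Against control skin, the p53 tumors alone passed for both, with a difference of -1.16 ± 0.29 for Rian (SE, limma adjusted p = 0.0267) and -1.51 ± 0.38 for Mirg (SE, limma adjusted p = 0.0283). The pRbp53 tumors alone differed from control skin by 1.06 (limma adjusted p = 0.364) for Rian and by 0.06 (limma adjusted p = 0.967) for Mirg. Over the 12 tumors and 10966 genes with a mean log2 signal of at least 6, the genes most like Meg3 by Pearson r were Rian at 0.954, Sgce at 0.937, Zfp994 at 0.915, Asb3 at 0.854 and Rilpl1 at 0.850. The points are tumors of 2 genotypes, and the genotype difference enters each of these values, which are a description.

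**Figure D2:**
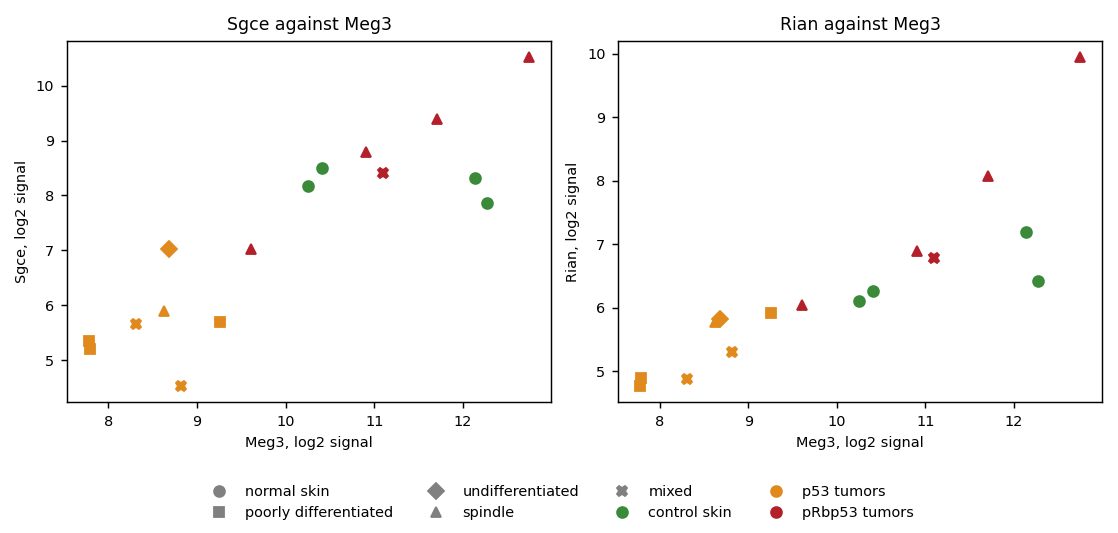
Log2 signal of Sgce (left) and Rian (right) against that of Meg3 in each array, coloured by group and shaped by histology. The 7 p53 tumors lie at the low end of both axes and pRbp53 tumor 1 at the high end, while control skin 1 and 3 are high for Meg3 at levels of Sgce close to those of control skin 2 and 4.

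Dlk1, a paternally expressed transmembrane protein related to Notch ligands that is known for holding back fat cell differentiation, lies upstream of Meg3 in the same cluster. It was 4.84, 4.95, 5.04 and 4.97 in control skin. In the p53 tumors it ran from 4.75 through 5.18 to 7.32, the last in p53 tumor 1. The pRbp53 tumors 1 to 5 had 11.51, 5.90, 5.51, 6.83 and 6.16. All 5 pRbp53 tumors lay above all 4 controls, a pattern whose share of all genes was not counted. The p53 tumors fell on both sides, and 1 spindle pRbp53 tumor stood far above every other array. Its genotype difference was 1.71 ± 0.92 (SE, limma adjusted p = 0.609), or 0.62 without pRbp53 tumor 1, and its difference from control skin 1.23 ± 0.89 (SE, limma adjusted p = 0.412). Across the 12 tumors of both genotypes, Dlk1 and Meg3 had a Pearson r of 0.71 and a Spearman rho of 0.706, given as a description with no p since the genotype difference that singled out Meg3 enters them. Without pRbp53 tumor 1 alone r was 0.477, and without pRbp53 tumors 1 and 5, the farthest from the median of Meg3, it was 0.458. Within the 7 p53 tumors r was 0.335 and rho 0.25.

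Sgce encodes epsilon-sarcoglycan, a membrane protein of the dystrophin-linked complex outside muscle as well as in it. Its level was 8.31, 8.50, 7.86 and 8.18 in control skin. In the p53 tumors it ran from 4.53 through a median of 5.65 to 7.02. The pRbp53 tumors 1 to 5 had 10.52, 7.02, 8.80, 8.40 and 9.39. Every p53 tumor lay below every control, and the tumor genotypes met without overlapping, at 7.018 in p53 tumor 3 and 7.019 in pRbp53 tumor 2. Means were 8.21 ± 0.27 (SD, n = 4), 5.62 ± 0.76 (SD, n = 7) and 8.83 ± 1.29 (SD, n = 5). The pRbp53 tumors were 3.21 ± 0.55 (SE) above the p53 tumors, a 9.23-fold difference, and the p53 tumors 2.59 ± 0.37 (SE) below control skin. The pRbp53 tumors differed from control skin by 0.61 ± 0.58 (SE). The dimmer of its 2 probesets was 2.08 higher in pRbp53 than in p53 tumors.

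For Sgce too, grade and genotype could be set apart only in part. Undifferentiated or spindle tumors had 8.10 ± 1.74 (SD, n = 6) and poorly differentiated ones 5.42 ± 0.25 (SD, n = 3), a difference of 2.69 ± 0.94 (SE) without overlap. Within the p53 tumors that difference was 1.04 ± 0.38 (SE). Within undifferentiated or spindle tumors the genotype difference was 2.48 ± 0.95 (SE), and with histology as a covariate it was 2.76 ± 0.65 (SE). Sgce was chosen for its genotype difference, so these values are a description and no separate support for it. The genes most like Sgce over the 12 tumors were Meg3 at 0.937, Rian at 0.924, Sec24a at 0.902, Zfp994 at 0.898 and Mirg at 0.881.

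Peg10, a gene derived from a retrotransposon whose start lies next to that of Sgce, was near the floor of the array in every group. Its single probeset ran from 3.03 to 3.71 in control skin, from 3.22 to 3.56 in p53 tumors and from 3.16 to 3.82 in pRbp53 tumors. Only 9.7% of probesets had a lower mean. The genotype difference was 0.11 ± 0.12 (SE, limma adjusted p = 0.819). Across the 12 tumors Sgce and Peg10 had r of 0.241 and rho of 0.182, again as a description, with r of 0.456 without pRbp53 tumors 1 and 5. Within the 7 p53 tumors r was -0.0396. Of the 7 listed neighbours of Sgce and Peg10, 0 passed by genotype by limma, where 0.159% of all genes did. By the methods' t-test 0 passed, and 1 was at an unadjusted limma p under 0.05. Casd1, on the far side of Sgce, was 8.61 to 9.96 in p53 tumors and 9.03 to 10.10 in pRbp53 tumors. Pon2, a paraoxonase, was lower in tumors than in control skin (-0.94 ± 0.22, SE, limma adjusted p = 0.00948). By grade, Tfpi2, a protease inhibitor, was higher in undifferentiated or spindle tumors (2.71 ± 0.68, SE, limma adjusted p = 0.0476), as was Pon2 (0.45 ± 0.11, SE, limma adjusted p = 0.0472). These calls by grade were lost in 13 and 16 of the alternatives, most of those run by grade, at adjusted p = 0.0541 to 0.291 for Tfpi2 and 0.0744 to 0.38 for Pon2.

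Of 8 listed genes of the sarcoglycan and dystroglycan complex, 6 were measured. Sgca, the sarcoglycan of striated muscle, fell by 2.59 ± 0.22 in tumors against control skin (SE, limma adjusted p = 3.8e-07) and Dmd, which encodes dystrophin, by 2.24 ± 0.54 (SE, limma adjusted p = 0.011). Skeletal muscle markers moved with them, with 8 of 10 lower, where 9.17% of all genes were. Mean log2 signals of these markers were 11.63 to 11.81 in control skin, 4.48 to 6.15 in p53 tumors and 4.74 to 8.02 in pRbp53 tumors. Their part in the result was not tested. By genotype 0 of 6 passed by limma, where 0.159% of all genes did, and 0 by the methods' t-test. The median difference was 0.38, with 1 at an unadjusted limma p under 0.05. By grade, Dmd was lower in undifferentiated or spindle tumors (-1.90 ± 0.45, SE, limma adjusted p = 0.0385). That call was lost in 12 of the alternatives, most of those run by grade (adjusted p = 0.0512 to 0.297).

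**Figure D3:**
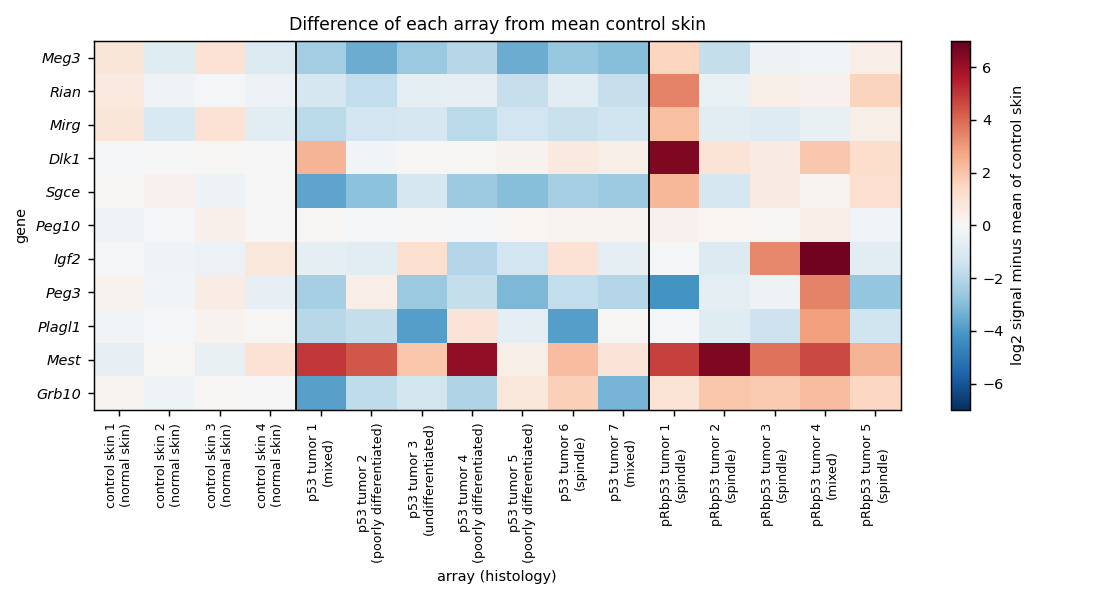
Log2 signal of the 9 measured members and of Rian and Mirg in each array (columns, with histology) minus the mean of control skin, red above and blue below it. The row of Meg3 is blue in all 7 p53 tumors, the row of Mest is red in all 12 tumors, and the deepest reds are Dlk1 in pRbp53 tumor 1, Igf2 in pRbp53 tumor 4 and Mest in p53 tumor 4 and pRbp53 tumor 2.

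Igf2, the fetal insulin-like growth factor, was 6.93, 6.78, 6.60 and 7.80 in control skin. In the p53 tumors it ran from 4.95 through 6.35 to 8.13. Levels in pRbp53 tumors 1 to 5 were 6.96, 6.05, 10.41, 13.79 and 6.30, so that 2 tumors, 1 spindle and 1 mixed, stood above every other array. The groups overlapped, with a genotype difference of 2.15 ± 1.25 (SE, limma adjusted p = 0.645), or 0.88 without pRbp53 tumor 4. Poorly differentiated tumors had 5.63 ± 0.65 (SD, n = 3), below all 4 controls, and the 2 undifferentiated or spindle p53 tumors had 8.13 and 8.06. Within the p53 tumors the grade difference was 2.46 ± 0.40 (SE, limma adjusted p = 0.0696), and over both genotypes it was 2.02 ± 0.89 (SE, limma adjusted p = 0.226). These values are of the brighter of its 2 probesets. The dimmer, with 20.6% of probesets below it, was 6.15 in pRbp53 tumor 4 but 3.83 in pRbp53 tumor 3. Its grade difference over both genotypes was -0.13.

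Of 15 listed genes of the insulin-like growth factor pathway, 14 were measured. Igf2r, the receptor that takes up IGF2 for breakdown and is itself imprinted, was 8.39 to 9.0 in control skin, 9.18 to 10.69 in p53 tumors and 10.18 to 10.35 in pRbp53 tumors. Every tumor lay above every control, and Igf2r rose by 1.33 ± 0.26 (SE, limma adjusted p = 0.00251) in tumors. The share of all genes whose tumors and controls do not overlap was not counted. By genotype and by grade 0 of 14 passed by limma, where 0.159% and 9.12% of all genes did. By the methods' t-test 0 passed, and 4 and 2 were at an unadjusted limma p under 0.05. The median difference of the list was -0.04 for tumors, 0.44 for genotype and 0.09 for grade.

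Grb10, which binds the activated insulin and IGF receptors, was 9.51, 8.98, 9.36 and 9.32 in control skin. In p53 tumors 1 to 7 it was 5.47, 7.51, 7.98, 7.21, 10.06, 10.95 and 6.03. In pRbp53 tumors 1 to 5 it was 10.23, 11.26, 11.14, 11.47 and 10.75. The 5 pRbp53 tumors lay close together and above all controls, a pattern whose share of all genes was not counted. The p53 tumors spread to both sides of control skin. The spread within groups was 2.0 (SD, n = 7) in p53 and 0.49 (SD, n = 5) in pRbp53 tumors. The pRbp53 tumors alone were 1.68 ± 0.24 above control skin (SE, limma adjusted p = 0.00152), while p53 tumors alone were at -1.40 ± 0.94 (SE, limma adjusted p = 0.405), and all tumors differed from control skin by -0.12 ± 1.06 (SE, limma adjusted p = 0.956). Of 45037 probesets, 8237 passed with pRbp53 tumors alone and 4800 with p53 tumors alone. The genotype difference was 3.08 ± 0.86 (SE, limma adjusted p = 0.279), and all 3 Grb10 probesets were higher in pRbp53 tumors, by 1.99 to 3.08. It passed without p53 tumor 6, a spindle tumor (limma adjusted p = 0.091), and was 1.38 ± 0.81 (SE, limma adjusted p = 0.576) among undifferentiated or spindle tumors. By grade the difference was 2.13 ± 0.84 (SE, limma adjusted p = 0.181), and it passed without p53 tumor 3, or with spindle tumors alone, which leaves out the same tumor (limma adjusted p = 0.0483).

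Of 4 listed neighbours of Mest and Grb10, Ddc, which makes dopamine and serotonin from their precursors and lies next to Grb10, was higher in pRbp53 than in p53 tumors. Its level was 3.81 to 4.22 in control skin and 3.27 to 3.89 in the p53 tumors, with 4.18, 5.39, 5.99, 5.44 and 4.55 in pRbp53 tumors 1 to 5. The tumor genotypes did not overlap for Ddc, a pattern whose share of all genes was not counted. The difference of 1.55 ± 0.27 (SE) passed at 0.1 (limma adjusted p = 0.065). It did not pass in 13 of the alternatives, most of those run by genotype (adjusted p = 0.109 to 0.452). Cobl, an actin nucleator on the other side of Grb10, was lower in tumors than in control skin (-3.25 ± 0.81, SE, limma adjusted p = 0.0129) and lower in undifferentiated or spindle than in poorly differentiated tumors (-3.29 ± 0.47, SE, limma adjusted p = 0.00468). Copg2, a coatomer subunit next to Mest, was also lower by grade (-1.19 ± 0.17, SE, limma adjusted p = 0.00462), though not by the methods' t-test or within the p53 tumors (adjusted p = 0.147 to 0.197 over these and the replicate block).

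Mest, a paternally expressed gene of the alpha/beta hydrolase family, passed with all tumors set against control skin. It was 5.05, 5.73, 5.10 and 6.62 in control skin. In p53 tumors 1 to 7 it was 10.58, 9.99, 7.54, 11.85, 6.06, 7.76 and 6.50, and in pRbp53 tumors 1 to 5 it was 10.43, 12.18, 9.40, 10.27 and 8.01. All 12 tumors were above the mean of control skin, and 10 of them were above every control, the exceptions being p53 tumors 5 and 7. The difference was 3.59 ± 0.99 (SE, limma adjusted p = 0.0235), a 12-fold higher signal. It missed the threshold without control skin 1, 2 or 3 (limma adjusted p = 0.084, 0.0611 and 0.0773), each of which leaves 3 controls, and was at the threshold with control skin 2 and 4 averaged (limma adjusted p = 0.05). Poorly differentiated tumors alone (limma adjusted p = 0.0981) and mixed tumors alone (limma adjusted p = 0.0889) did not pass. The pRbp53 tumors alone were 4.43 ± 0.73 (SE, limma adjusted p = 0.00302) and the p53 tumors alone 2.99 ± 1.06 (SE, limma adjusted p = 0.105) above control skin. These fits called 8237 and 4800 of 45037 probesets. Between genotypes the difference was 1.45 ± 1.06 (SE, limma adjusted p = 0.729) and between grades -0.08 ± 1.39 (SE, limma adjusted p = 0.983).

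Peg3, a paternally expressed zinc finger protein, was 9.35, 8.92, 9.62 and 8.56 in control skin. In the p53 tumors it ran from 5.99 through 7.08 to 9.59. In pRbp53 tumors 1 to 5 it was 4.91, 8.47, 8.78, 12.59 and 6.41. The lowest and the highest of the 16 arrays were both pRbp53 tumors, and 10 of 12 tumors lay below the mean of control skin. Against control skin the tumors differed by -1.45 ± 0.98 (SE, limma adjusted p = 0.376), undifferentiated or spindle tumors by -2.04 ± 0.68 (SE, limma adjusted p = 0.0519) and p53 tumors by -1.86 ± 0.56 (SE, limma adjusted p = 0.0596). By genotype the difference was 0.98 ± 1.11 (SE, limma adjusted p = 0.833), or -0.12 without pRbp53 tumor 4. Of its 5 probesets, 2 were at the floor of the array, with 0.5% and 1.2% of probesets below them.

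Plagl1, a paternally expressed zinc finger protein known to halt the cell cycle, was 9.75, 9.81, 10.17 and 10.04 in control skin. In p53 tumors 1 to 7 it was 8.0, 8.29, 6.06, 10.85, 9.26, 6.11 and 10.01, and in pRbp53 tumors 1 to 5 it was 9.84, 9.10, 8.52, 12.84 and 8.56. The lowest values belonged to the undifferentiated and the spindle p53 tumor and the highest to the mixed pRbp53 tumor. In the next brightest of its 3 probesets, p53 tumor 3 was at 4.55, above p53 tumors 1 and 7 at 4.31 and 4.32. The 2 dimmer probesets differed by grade by -0.99 and -0.06. By grade the difference of the brightest was -1.44 ± 0.95 (SE, limma adjusted p = 0.441). With genotype as a covariate it was -3.38 ± 0.70 and passed (SE, limma adjusted p = 0.0382). No pRbp53 tumor was poorly differentiated, so that difference rests on the p53 tumors, 2 against 3. In the p53 tumors alone the same difference of -3.38 ± 0.77 did not pass (SE, limma adjusted p = 0.124). Against control skin the difference was -0.99 ± 0.91 (SE, limma adjusted p = 0.533) and by genotype 1.40 ± 0.99 (SE, limma adjusted p = 0.715).

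The mixed pRbp53 tumor 4 was the highest of the 16 arrays for Igf2, Peg3, Plagl1 and Grb10, and the spindle pRbp53 tumor 1 the highest for Meg3, Rian, Mirg, Sgce and Dlk1. For Peg3, the tumor highest for Meg3 was the lowest. In pRbp53 tumor 4 the markers of Schwann cells and neurons, 4 of 6 measured, had a mean log2 signal of 8.27, against 5.58 to 7.95 in the other 15 arrays. S100b, a calcium-binding protein of glia, was 11.35, against 4.86 to 7.66 elsewhere. Uchl1 was 8.59 there but 9.44 in pRbp53 tumor 1, and Mbp and Sox10, the defining markers of myelinating and neural crest glia, were not raised, at 6.60 and 6.53 against 6.48 to 8.85 and 6.13 to 9.64. The macrophage markers of pRbp53 tumor 4, 10 of 10 measured, had a mean of 7.68, against 9.50 to 10.90 in the other pRbp53 tumors and 7.57 to 10.77 in the p53 tumors. Its keratinocyte markers had a mean of 7.31, against 4.84 to 5.38 in the other pRbp53 tumors. The part of these cell types in the levels of that tumor was not tested.

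**Figure D4:**
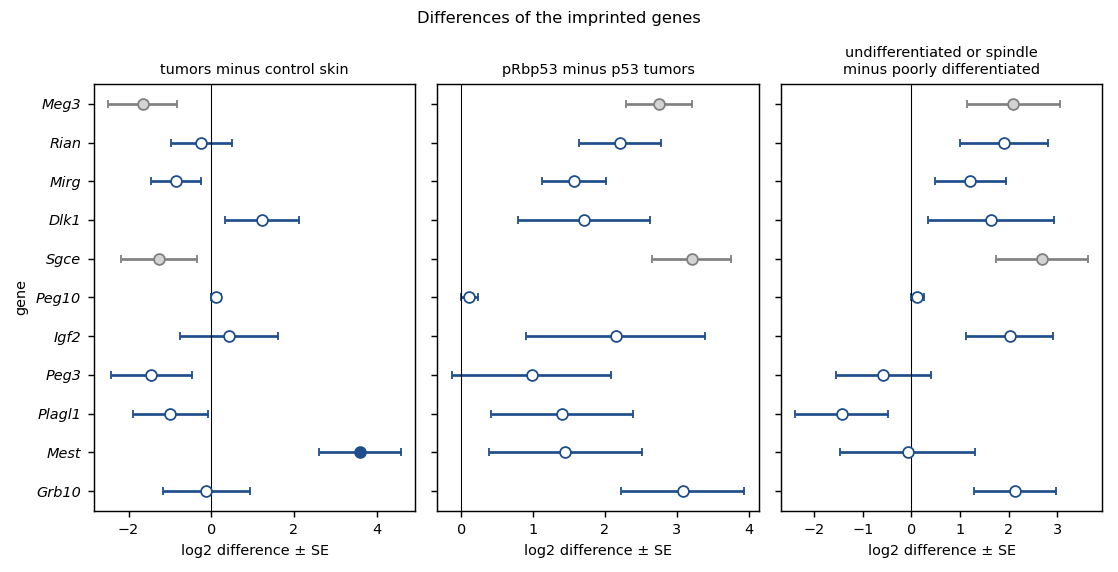
Log2 difference ± SE of the 9 measured members and of Rian and Mirg for tumors minus control skin (left), pRbp53 minus p53 tumors (middle) and undifferentiated or spindle minus poorly differentiated tumors (right). Grey points (Meg3 and Sgce) were not tested, the filled blue point (Mest, left) passed, and open points did not.

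Of 56 other imprinted genes and locus neighbours listed, 47 were measured. In tumors 3 were higher and 4 lower than in control skin, with a median difference of 0.02. Of all genes 16.7% passed, 7.57% higher and 9.17% lower. Sfmbt2, a Polycomb protein, rose by 2.43 ± 0.73 (SE, limma adjusted p = 0.0377) and H13, a signal peptide peptidase, by 0.86 ± 0.21 (SE, limma adjusted p = 0.0122). The call of Sfmbt2 was lost in 13 of the alternatives (adjusted p = 0.0515 to 0.222) and that of H13 without control skin 1 (adjusted p = 0.0538). Of the Igf2-H19 and Kcnq1 region, Osbpl5, an oxysterol-binding protein, fell by 1.94 ± 0.28 (SE, limma adjusted p = 1.9e-04) and Ascl2, a transcription factor of placenta and intestinal stem cells, by 1.80 ± 0.13 (SE, limma adjusted p = 7.63e-08), while 0 of its 12 genes passed by genotype by limma or by the methods' t-test, with 2 at an unadjusted limma p under 0.05. By genotype 1 of 47 was higher, which was Ddc, and 1 lower, where 0.159% of all genes passed, with a median of 0.02. The lower one was Inpp5f, an inositol phosphatase, at 7.94 to 8.65 in p53 and 7.27 to 7.75 in pRbp53 tumors (-0.78 ± 0.14, SE, limma adjusted p = 0.0877). That call was lost in 17 of the alternatives, most of those run by genotype (adjusted p = 0.114 to 0.206). By grade 2 were higher and 2 lower, where 9.12% of all genes passed, with a median of -0.04.

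Markers of cell types also differed between these samples. Adipocyte markers were lower in tumors in 8 of 8 measured by limma, where 9.17% of all genes were lower, and 6 passed by the methods' t-test. Their means were 8.95 to 10.73 in control skin, 5.65 to 7.14 in p53 and 5.11 to 7.17 in pRbp53 tumors. Fibroblast markers, which include collagens and Pdgfra, had means of 11.79 to 12.17 in control skin, 8.22 to 11.16 in p53 and 10.82 to 12.90 in pRbp53 tumors. Their median genotype difference was 1.36, with 0 of 9 past the test by limma or by the methods' t-test and 5 at an unadjusted limma p under 0.05, and by grade 5 of 9 were higher by limma and 0 by the methods' t-test. Keratinocyte markers had a median genotype difference of -3.27, with 0 of 10 past either test and 6 at an unadjusted limma p under 0.05. Macrophage markers were higher by grade in 10 of 10 by limma and in 4 by the methods' t-test. Of all genes, 0.159% passed by genotype and 9.12% by grade by limma. The part of these cell types in the levels of Meg3, Sgce and the other members was not tested.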

How the data were processed

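RNA of 4 control skin samples and 12 carcinomas was hybridised to 1 array each. The deposited values are log2 signals that the authors obtained with RMA, a method of background correction, quantile normalization between arrays and summary of probes into probesets. The version of RMA is not given in the sources used here. Samples were grouped by title and by labelled histology. Of 45101 probesets, 64 array controls were left out, and of the 45037 tested 34945 carry 1 gene symbol and 932 several, of which 34741 of the former matched a RefSeq gene ID.

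The members and gene lists were chosen with earlier results of these data known. All measured members are named, each gene read from its brightest probeset. Up to 3 genes that passed and had the largest differences are named per list and comparison, besides Rian and Mirg. Lists cover neighbours of each imprinted locus, other imprinted genes, the insulin-like growth factor pathway, the sarcoglycan complex and markers of 8 cell types.

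Linear models were fitted with limma 3.58.1 in R 4.3.3, two-sided, with Benjamini-Hochberg adjustment over all probesets, at 0.05 for tumors against control skin (12 against 4) and for grade (6 against 3, mixed tumors left out) and at 0.1 for genotype (5 against 7), and they were tested on simulated data. Meg3 and Sgce carry no test. Correlations of Meg3 with Dlk1 and of Sgce with Peg10 were computed with scipy 1.17.1 and are given with no p, although permutation tests were planned, because Meg3 and Sgce were chosen by their values. H19 with Igf2 could not be run. The number of arrays limits the precision. Samples of different groups that share a replicate number formed 13 pairs, and deviations from the group means correlated above 0.1 in 3 of them. That cannot decide whether the numbers pair the samples, since histology also enters the deviations, and no label states a pairing. Alternatives were the replicate block, leaving out each array, the 2 arrays of high actin 3' signal, another empirical Bayes prior, array weights, median centring, brighter probesets, the methods' t-test in Welch form, the mean of a member's probesets, covariates, subsets of tumors and other groupings. Figures were drawn with matplotlib 3.10.9.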

Additional observations from a re-analysis of the deposited data

Results flagged for a closer look

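Of 36 groups of 4 to 7 arrays examined over the 9 measured members, 5 held an array whose gap to its nearest neighbour was large against the range of the group, where chance flags about 1 in 20 groups. The groups by genotype and by histology share arrays, and 1 array of Dlk1 counts in 2 of the 5. Dlk1 was 11.51 in pRbp53 tumor 1, against at most 6.83 in the other pRbp53 tumors and at most 6.16 in the other undifferentiated or spindle tumors. Dlk1 was 7.32 in p53 tumor 1, against at most 5.64 in the other p53 tumors. Peg3 was 9.59 in p53 tumor 2, against at most 7.42 in the other p53 tumors. Grb10 was 7.98 in p53 tumor 3, against at least 10.23 in the other undifferentiated or spindle tumors.

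The 2 listed genes that passed between pRbp53 and p53 tumors, where 0.159% of all genes did, were Ddc, 1.55 higher in pRbp53 tumors, and Inpp5f, with a difference of -0.78. Both compare tumors with tumors, and the calls were lost in 13 and 17 of the alternatives, most of those run by genotype.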

How the results depend on the processing

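With 1 array left out, the genotype difference ran from 2.36 to 3.15 for Meg3 and from 2.78 to 3.66 for Sgce, which were chosen for that difference, so this does not bear on how stable it is. The precision is limited by the number of arrays, and Peg10 and 2 Peg3 probesets lay at the floor of the array. Where a count or a direction moved, the cause was not tested beyond what the alternative itself leaves out.

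The 5949 probesets called between tumors and control skin became 14405 with array weights, 8987 by the methods' t-test, 10841 with undifferentiated or spindle tumors alone and 3282 with mixed tumors alone. Leaving out 1 array gave 3744 (without control skin 1) to 6908. The 89 called by genotype became 57 at an adjusted p of 0.05, 288 with array weights, 25 by the methods' t-test, 54 with histology as a covariate and 468 with control skin added as a group of its own. Leaving out 1 array gave 47 (without p53 tumor 2) to 216 (without p53 tumor 6), with 152 and 184 without p53 tumor 1 and pRbp53 tumor 4 and 53 and 55 without pRbp53 tumors 3 and 5. The 3326 called by grade became 825 by the methods' t-test, 2024 with genotype as a covariate and 827 with p53 tumors only, and leaving out 1 array gave 2039 (without p53 tumor 4) to 3473.

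No label states that samples are paired by their replicate numbers. With them as a block, limma called 35 probesets by genotype and 0 by grade, with 5532 at an unadjusted p under 0.05 for the latter, and the grade difference became -0.03 for Peg10, 2.07 for Mest and 0.05 for Plagl1.

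Against control skin, pRbp53 tumors alone gave 0.61 for Sgce, 1.68 for Grb10, 1.06 for Rian and 0.06 for Mirg. Poorly differentiated tumors alone gave -0.02 for Peg10 and -1.39 for Igf2, p53 tumors alone -0.48 for Igf2, and mixed tumors alone 0.34 for Plagl1. Undifferentiated or spindle tumors alone gave 1.09 for Grb10 and 0.60 for Rian. Array weights gave 0.20 for Grb10 and 0.18 for Rian, the mean of its probesets 0.60 for Grb10, and leaving out control skin 3 and p53 tumor 7 gave 0.19 for Grb10. Among undifferentiated or spindle tumors the genotype difference was -0.01 for Peg10 and -0.66 for Igf2, and with spindle tumors alone the grade difference of Mest was 0.25. Leaving out 1 array turned the difference from control skin of Peg10 (0.00 to 0.23), Igf2 (-0.16 to 0.68) and Grb10 (-0.33 to 0.22), the genotype difference of Peg3 (-0.12 to 1.81) and the grade difference of Peg3 (-1.42 to 0.38) and Mest (-1.70 to 1.19). Without pRbp53 tumor 1, r of Meg3 and Dlk1 was 0.477, and leaving out 1 tumor gave 0.477 to 0.779. Calls of Ddc, Inpp5f, Dmd and Pon2 by grade, Tfpi2 and Sfmbt2 were each lost in 12 to 17 alternatives, for all but Sfmbt2 most of those run.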
